A study of Mus musculus with 16 samples.

Results

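The comparison described here set wounds of wild-type (WT) mice against each other between the 2 labelled days, and it used 4 of the 16 arrays of the series. Its members were the 2 arrays whose labels read WT and day 14 and the 2 whose labels read WT and day 7. The WT mice were female C57BL/6J mice aged 10 to 12 weeks that received no treatment. Each wound was a circular full-thickness skin wound of 4 mm in diameter on the dorsum, and total RNA came from a homogenate of the wound with its surrounding intact skin. The untreated db/db arrays, used only to show where WT differed, came from female C57BLKS/J mice aged 10 weeks that carry 2 mutant copies of the leptin receptor gene and become obese and diabetic. WT and db/db mice thus differed in strain background as well as in genotype. The db/db + estrogen mice, whose wounds received topical estrogen at 0.75 μg/g/day, and the db/db + vehicle mice, treated with sesame oil alone, enter only as counts. No label said whether the 2 arrays of a group came from separate mice, so that p-values measured only the spread between arrays, which may be technical.

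The labelled day had limits that apply to every result. All arrays labelled day 7 were scanned on 1 day and all arrays labelled day 14 on another, so that labelled day and scan day cannot be told apart. The 2 WT arrays labelled day 7 lay on separate slides, and both WT arrays labelled day 14 lay on 1 slide. A check of 40 printed db/db vs WT fold changes against the deposited arrays found 40 of them within 1% on the arrays of the other labelled day and 0 on the arrays of the same labelled day. Whether the labels or the printed day headings hold the true day was not tested. The arrays are therefore called by their labels throughout, and "higher" or "lower" always means the arrays labelled day 14 against those labelled day 7.

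A skin wound is first filled by neutrophils and inflammatory monocytes, which cytokines and chemokines from keratinocytes, fibroblasts and leukocytes attract. Keratinocytes at the edge then switch on wound keratins, divide and migrate, while fibroblasts and new vessels build granulation tissue, which contracts and is remodelled. As the wound closes, inflammation and cell division decline, the epidermis rebuilds its barrier, and hair follicles and melanocytes remain mainly in the surrounding skin.

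All levels below are log2 of the processed signal over the 75th percentile of the same array, so that 0 is the 75th percentile. They compare 1 probe between arrays and do not rank genes, and differences between the days are on the same log2 scale. The 75th percentile itself was 1204 and 1404 intensity units on the 2 arrays labelled day 7, and 2383 and 1091 on the 2 labelled day 14. The share of probes well above background was 74.4% and 73.5% on the former and 79.0% and 77.8% on the latter, and no spot was saturated. Of the 4 arrays, replicate 2 of labelled day 14 was the dimmest. The precision was limited by 2 arrays a group.

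The tissue matched its label. Epidermal Krt5, Krt14, Krt1 and Krt10, fibroblast Col1a1, Col3a1 and Dcn, endothelial Pecam1 and Cdh5, and macrophage Adgre1 and Csf1r were well above background on all 4 arrays. So were skeletal muscle Acta1, Ckm and Myh4 and adipocyte Adipoq and Plin1, that is, markers of layers of the skin under the dermis. The neutrophil marker Ngp was well above background on 2 of the 4 arrays, whereas S100a8 and S100a9 were on all 4. Xist, which is expressed from the inactive X chromosome of females, was well above background on all 4 arrays. Of the Y-linked genes, Eif2s3y, Kdm5d and Uty were on none, and Ddx3y was on 1, replicate 2 of labelled day 7, at −4.03 against −8.70, −9.84 and −9.23 on the other arrays.

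Few differences between the labelled days of WT wounds were larger than the spread between arrays once the number of probes was allowed for. Of 30206 probes tested, 1332 (4.41%) were called, that is, had an unadjusted two-sided p below 0.05 in limma's moderated test and a fold change above 2. Of these, 593 (1.96% of the probes tested) were higher and 739 (2.45%) were lower. After Benjamini-Hochberg adjustment 5 probes (0.0166%) remained, while 4209 had an unadjusted p below 0.05 at any fold change. The median difference of all probes was −0.02 on the log2 scale. The share of calls that were higher was 44.5%, but it was 62.1% with arrays scaled by their median, which raised the median of all probes to 0.11, and 59.9% with quantile normalization. A permutation of 2 against 2 arrays cannot give an exact two-sided p below 0.333, so that single genes rest on limma, which shared the spread over all 8 groups.

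The spread between replicates was of the same order. The means of the 2 labelled days lay more than 2-fold apart for 7.19% of the probes tested. Between the 2 replicates, 6.14% of probes lay more than 2-fold apart on labelled day 7 and 11.4% on labelled day 14. A difference between single arrays has more noise than a difference between means of 2, so that these shares are not on an equal footing. In db/db wounds the labelled days lay more than 2-fold apart for 14.98% of probes. There, 3753 of 29463 probes (12.7%) were called, against 4176 of 29810 (14.0%) in db/db + estrogen wounds and 3555 of 30020 (11.8%) in db/db + vehicle wounds. After adjustment 2673, 2614 and 2434 probes remained in these groups.

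**Figure D1:**
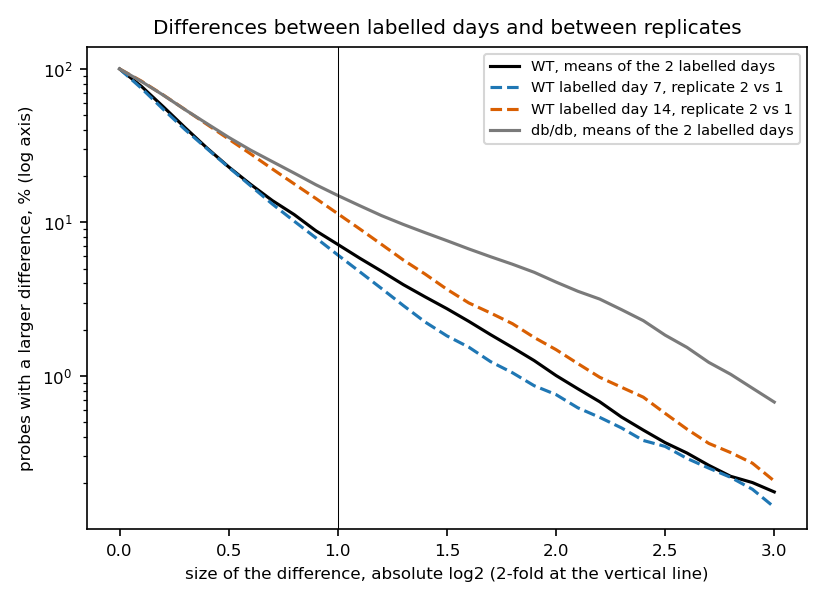
The share of probes (y axis, percent, log axis) whose difference was larger than a given size (x axis, absolute log2), for the means of the 2 labelled days in WT and db/db wounds and for the 2 replicates of each WT group. At 2-fold, the WT days stood at 7.19%, between the WT replicates of labelled day 7 (6.14%) and of labelled day 14 (11.4%), and the db/db days stood at 14.98%.

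The 5 probes that passed the adjustment were dim. Abcg8, which encodes a sterol transporter, stood at −8.87 and −8.93 on labelled day 7, where it was not well above background, and at −5.64 and −5.71 on labelled day 14, which is at least 1.89-fold higher (limma adjusted p = 0.0015). Slc10a5, of the bile acid carrier family, stood at −4.70 and −4.78 on labelled day 7 and was not well above background on labelled day 14, which is at least 6.20-fold lower (limma adjusted p = 0.029). A probe of Mobp, a myelin gene, was at least 3.78-fold lower (limma adjusted p = 0.014), a probe without a gene name was at least 2.07-fold higher (adjusted p = 0.0028), and AU015836 was higher with no fold to give (adjusted p = 0.034). For Mobp and AU015836 another probe of the same gene, with a higher mean level, was not called (differences 0.16 and 0.54). In each of these 5 the group that was lower had no array well above background, so that the probe entered the test only through its higher group. Each adjusted p-value thus sets a measured signal against one not well above background. Where all arrays compared had to be well above background, 0 probes passed the adjustment. With normexp background correction, another way to subtract background, the difference was 0.26 for Abcg8 and −0.96 for Slc10a5, and neither was called. Abcg8 was not called with a floor on dim signals either (0.92).

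Among the genes called, with 1 probe a gene, 358 were higher and 404 lower of 17060 genes tested. The 15 with the largest called increase included Csf3, Retnlg, Cxcl3, Reg3g, Il6, Saa1, Saa2 and Defb4, and the 15 with the largest called decrease included Krt25, Krt71, Krt35, Krtap17-1 and Krt28. Such folds are given with limma's standard error (SE), and apart from Abcg8 and Slc10a5 none of these 30 genes had an adjusted p below 0.05 (range of the other 28, 0.10 to 0.35). Of 105 called genes chosen for naming, 25 were called in all 14 other settings tried, which include leaving out each array in turn, and most calls that were lost are given with the genes. Since RNA came from whole tissue, fewer cells of a type and less RNA per cell cannot be told apart.

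**Figure D2:**
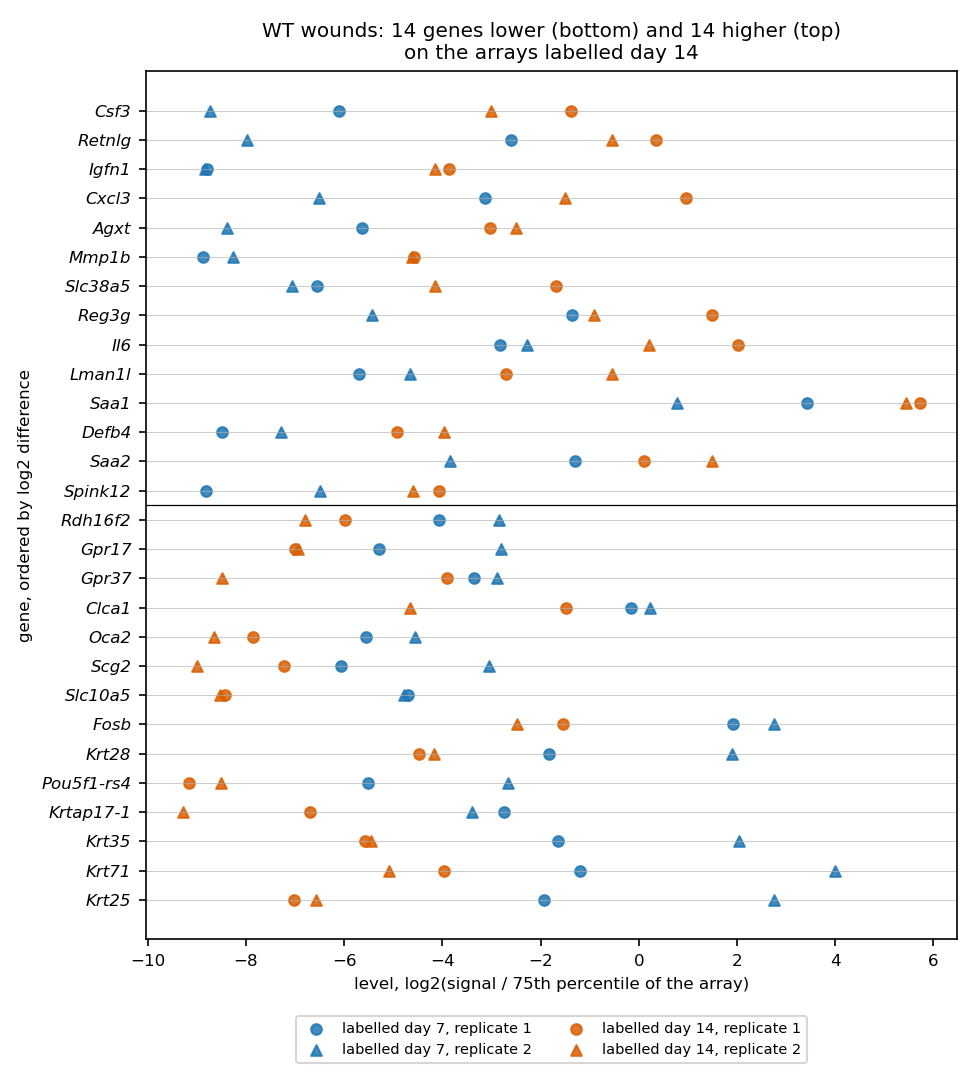
Levels of the 14 genes with the largest called increase (top) and the 14 with the largest called decrease (bottom) on the 4 WT arrays (x axis, log2 of signal over the 75th percentile of the array). Circles and triangles are replicates 1 and 2, blue is labelled day 7 and orange is labelled day 14. The groups did not overlap for any of these 28, since the rule asked for it, but the replicates of a group lay up to several log2 units apart, as for Retnlg at −2.60 and −7.98 on labelled day 7.

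Inflammatory cytokines and chemokines were the list with the highest share of called genes. Of its 37 genes tested, 16 were higher and 0 lower (background 1.96% and 2.45%), with a median difference of 0.92 against −0.02 over all probes. Il6, a cytokine that drives the acute-phase response, stood at −2.83 and −2.27 on labelled day 7 and at 2.02 and 0.21 on labelled day 14, a difference of 3.67 (SE 0.93, unadjusted p = 0.0028, limma). Csf3, the growth factor of neutrophil precursors, stood at −6.10 and −8.73 against −1.39 and −3.001, with only 1 of the 2 arrays labelled day 7 well above background. Its difference was 5.22 (SE 1.101). It was 2.22 and still called with normexp background correction. For both genes replicate 1 of labelled day 14 was the highest array. That the groups did not overlap was asked for by the rule that chose these 2 genes.

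Cxcl3, which attracts neutrophils through the receptor CXCR2, stood at −3.13 and −6.51 against 0.97 and −1.497, a difference of 4.55 (SE 1.59), with only 1 of the 2 arrays labelled day 7 well above background. Cxcl3 was not called without replicate 2 of labelled day 7 (2.86) or without replicate 1 of labelled day 14 (3.32). Saa1, an acute-phase apolipoprotein, stood at 3.44 and 0.79 against 5.73 and 5.45, a difference of 3.48 (SE 0.83), which was 2.15 without replicate 2 of labelled day 7 and still called. On labelled day 7, replicate 2 was the lower array for Csf3, Cxcl3 and Saa1, but not for Il6. Ccl8, a monocyte chemokine and the member with the highest mean signal, did not pass (6.31 and 4.42 against 5.86 and 4.83). The count rested in part on single arrays. It was 7 higher and 3 lower without replicate 1 of labelled day 14, 7 higher without replicate 2 of labelled day 7, 12 without replicate 1 of labelled day 7, and 20 without replicate 2 of labelled day 14. The summed level of the 37 genes was 159 and 65.8 on labelled day 7 and 348 and 216 on labelled day 14, in units of the 75th percentile.

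Promoters of these genes are shown because 16 of the 37 genes were called higher and many cytokine promoters are known, as background, to hold sites for the transcription factor NF-κB. In RefSeq promoters of the build GRCm38.p6, 12 of the 16 called genes had an entry. One form of the NF-κB site (GGG, any 2 bases, then TTTCC, with both strands searched) stood within the 250 bases before the start site of 3 of these 12, namely Cxcl2, Cxcl3 and Il6. Of the 13 genes of the list with an entry that were tested and not called, 2 held them, and 1.41% of all 32851 promoters did. The motif was chosen after the values of the genes were seen. Below, capitals mark these letters in the 250 bases before the start site of Cxcl2 (chr5:90903649-90903898, plus strand), Cxcl3 (chr5:90785851-90786100, plus strand) and Il6 (chr5:30012864-30013113, plus strand), read 5′ to 3′.
Cxcl2: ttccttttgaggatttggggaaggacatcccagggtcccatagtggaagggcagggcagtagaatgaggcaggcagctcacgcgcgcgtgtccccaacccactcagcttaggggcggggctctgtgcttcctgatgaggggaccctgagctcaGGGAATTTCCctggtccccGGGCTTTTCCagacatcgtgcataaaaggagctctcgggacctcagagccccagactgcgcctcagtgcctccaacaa
Cxcl3: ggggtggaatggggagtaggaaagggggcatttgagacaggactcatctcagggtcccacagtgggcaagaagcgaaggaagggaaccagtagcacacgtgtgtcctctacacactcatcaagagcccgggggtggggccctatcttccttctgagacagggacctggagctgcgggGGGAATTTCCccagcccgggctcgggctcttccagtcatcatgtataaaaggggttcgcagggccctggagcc
Il6: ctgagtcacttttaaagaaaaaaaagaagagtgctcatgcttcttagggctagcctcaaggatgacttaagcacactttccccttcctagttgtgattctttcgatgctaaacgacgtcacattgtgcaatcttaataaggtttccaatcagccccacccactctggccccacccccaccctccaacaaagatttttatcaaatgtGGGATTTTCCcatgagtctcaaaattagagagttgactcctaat
Cxcl2 held the letters at 2 places and Cxcl3 and Il6 at 1 each. A match is a run of letters and does not show that a factor binds there.

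Neutrophil genes were higher in part. Of 32 tested, 6 were higher and 0 lower (background 1.96% and 2.45%), with a median of 0.32. This median was 0.13 without replicate 2 and 0.52 without replicate 1 of labelled day 7, and 0.22 without replicate 1 of labelled day 14. Retnlg, a resistin-like factor of neutrophils, stood at −2.60 and −7.98 on labelled day 7 and at 0.36 and −0.55 on labelled day 14, a difference of 5.197 (SE 1.54), and it was well above background on only 1 of the 2 arrays labelled day 7. Without replicate 2 of that day, the dim one, the difference was 2.51 and Retnlg was not called. Lcn2, or lipocalin, which binds bacterial siderophores, stood at 2.23 and 1.41 against 3.83 and 3.36, a difference of 1.77 (SE 0.44). Fpr1, the receptor of formyl peptides, had a difference of 1.88 (SE 0.83), which was 0.43 without replicate 2 of labelled day 7 and 3.34 without replicate 1. Fpr1 was called in 10 of 14 settings, and not without that replicate 2, without either array labelled day 14 or with only the arrays compared in the fit. S100a9, an alarmin and the member with the highest mean signal, did not pass, with 7.72 and 7.66 against 7.65 and 8.05. The summed level, which S100a9 and other bright probes dominate, was 949 and 962 on labelled day 7 and 800 and 949 on labelled day 14 and thus did not separate the days. The count was 3 higher and 1 lower without replicate 1 of labelled day 14 or without replicate 2 of labelled day 7, and 9 higher and 2 lower without replicate 1 of labelled day 7, and 2 genes were lower with only the arrays compared in the fit or with slide as a random block.

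Antimicrobial genes gave 5 higher and 1 lower of 18 (background 1.96% and 2.45%). Reg3g, a secreted lectin that kills Gram-positive bacteria, stood at −1.36 and −5.43 on labelled day 7 and at 1.499 and −0.92 on labelled day 14. It was not called without replicate 2 of labelled day 7 (1.65), without replicate 1 of labelled day 14 (2.48) or with only the arrays compared in the fit. The β-defensin Defb4 was not well above background on labelled day 7 and was at least 4.42-fold higher on labelled day 14. Defb4 was called in 9 of 14 settings, and not with normexp background correction (0.58), with a floor on dim signals, without replicate 1 of labelled day 7 or without replicate 2 of labelled day 14. Slpi, an inhibitor of leukocyte proteases, stood at 3.01 and 2.96 against 5.12 and 4.56, a difference of 1.86 (SE 0.43). The member that was lower was Lyz2, the lysozyme of macrophages and neutrophils, which stood at 3.65 and 2.73 against 1.77 and 0.92 (difference −1.84, SE 0.38). Both arrays labelled day 14 lay below both arrays labelled day 7. The count of higher genes was 3 whichever of the 4 arrays was left out, and 3 genes were lower without replicate 1 of labelled day 14.

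Macrophage genes showed no common direction. Lyz2 was the 1 gene called of 26, and it was lower, while the median was −0.24. Its direction turned on single arrays, with 4 higher and 1 lower and a median of 0.07 without replicate 1 of labelled day 7, a median of 0.04 without replicate 2 of labelled day 14, 5 lower without replicate 2 of labelled day 7, and 1 higher and 4 lower without replicate 1 of labelled day 14. Among genes of alternatively activated macrophages, 4 were higher and 1 lower of 18 (background 1.96% and 2.45%), with a median of 0.64. Chil3, which encodes Ym1, stood at 1.43 and −0.14 on labelled day 7 and at 3.47 and 3.16 on labelled day 14, a difference of 2.67 (SE 0.62). The C-type lectin Cd209f was higher by 3.27 (SE 1.00), Il4ra, a receptor chain for IL-4 and IL-13, by 1.83 (SE 0.37), and Retnla by 1.54 (SE 0.63). The chemokine Ccl17 was lower by 1.52 on the log2 scale (−1.52, SE 0.53). Retnla was not called with normexp background correction (0.94), without replicate 2 of labelled day 7 or without either array labelled day 14, nor was Ccl17 without replicate 1 of labelled day 7 or replicate 2 of labelled day 14 (−0.80). The count was 8 higher and 0 lower without replicate 1 of labelled day 7 and 3 higher and 2 lower without replicate 2 of that day.

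Genes of antigen presentation had differences of 1 direction. All 17 tested genes of MHC class II and dendritic cells had a difference below 0, with a median of −0.77. Of these, 4 were called lower (background 2.45%). Cd83, a marker of mature dendritic cells, stood at 1.43 and 1.07 on labelled day 7 and at −0.36 and −1.34 on labelled day 14, a difference of −2.10 (SE 0.51). H2-Aa, the α chain of a class II molecule, stood at 1.56 and 1.47 against 0.17 and 0.76, a difference of −1.05 (SE 0.39). Ccr7, which guides dendritic cells to lymph nodes, and Clec9a, a marker of cross-presenting dendritic cells, were lower by −1.26 (SE 0.49) and −1.40 (SE 0.62). Clec9a was called in only 6 of 14 settings, and not with another scaling, with normexp background correction, with the replicate block or with any 1 array left out. H2-Aa was called in 9 of 14 and Ccr7 in 11, and both lost their call when either array labelled day 7 or replicate 1 of labelled day 14 was left out. The brightest member, H2-Ab1, did not pass (5.43 and 5.05 against 4.41 and 4.73). The count was 1 without either array labelled day 7, 3 without either array labelled day 14, and 2 with normexp background correction or with arrays scaled by their median.

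Lymphocyte and epidermal T cell genes gave 6 lower and 0 higher of 32 (background 2.45% and 1.96%), with a median of −0.47. Skint genes, which encode keratinocyte proteins needed for the epidermal γδ T cell repertoire, supplied 3 of the 6. Skint5 stood at −3.11 and −3.82 on labelled day 7 and at −4.75 and −6.01 on labelled day 14, Skint1 was lower by −1.64 (SE 0.65) and Skint4 by −1.30 (SE 0.53). Klra5 was also lower, by −1.47 (SE 0.56). Klra5 was well above background on 1 of 2 arrays labelled day 14. Without replicate 2 of labelled day 14 the difference was −1.28 for Skint5, −0.96 for Skint1 and −0.38 for Skint4, and none of these nor Klra5 was called. Nor was any of the 4 called without replicate 1 of labelled day 7 (−1.55 for Skint5 and −0.82 for Klra5), and without replicate 2 of that day Skint1 and Skint4 were not called. Skint4 was called in 9 of 14 settings, and it was also lost with arrays scaled by their median and with only the arrays compared in the fit. With normexp background correction Skint5 (−0.94) and Klra5 (−0.63) were not called. Thy1, with the highest mean signal, did not pass (4.62 and 4.75 against 5.07 and 5.19). The count was 1 without replicate 2 of labelled day 14 or without replicate 1 of labelled day 7, and 3 with normexp background correction. Skint genes, like Saa1 and Saa2 or Mmp1a and Mmp1b, are close copies of each other, so that a probe may read more than 1 of them.

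Genes of cell division had small differences of 1 direction. Of 62 genes tested, 61 had a difference above 0, with a median of 0.80 against −0.02 over all probes. Of the 62, 14 were called, all higher (background 1.96%). Plk1, a kinase of mitotic entry, stood at −0.07 and 0.61 on labelled day 7 and at 1.31 and 1.86 on labelled day 14, a difference of 1.32 (SE 0.31). Cdk1, the kinase that drives mitosis, stood at −1.88 and −0.96 against −0.38 and 0.13, a difference of 1.30 (SE 0.33). Nuf2, a kinetochore subunit, was higher by 1.31 (SE 0.36). Without replicate 1 of labelled day 7 the difference was 0.98 for Plk1, 0.83 for Cdk1 and 0.69 for Nuf2, and none of the 3 was called. Aurkb was called as well, but it was not well above background on labelled day 7 and its level on labelled day 14 (−7.26 and −6.81) was too low to give a fold, and its difference was below 0 under normexp background correction and with a floor on dim signals. Pcna, the sliding clamp of DNA replication and the brightest member, stood at 2.51 and 2.71 against 3.17 and 2.94 and did not pass, with a difference of 0.44 (SE 0.16).

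The groups did not overlap for 56 of the 62 genes, against 39.7% of all probes tested, while 4.41% of all probes were called. The summed level was 56.7 and 78.7 on labelled day 7 and 110 and 125 on labelled day 14, and replicate 1 of labelled day 7 was the lowest array. The number called moved with single arrays and with the scaling. It was 2 without replicate 1 of labelled day 7, 7 without replicate 2 of labelled day 14, 25 without replicate 1 of labelled day 14 and 36 without replicate 2 of labelled day 7. It was 27 with arrays scaled by their median. In all of these the median stayed above 0, between 0.50 and 1.13.

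Mitotic genes are known to carry a CCAAT box and a cell cycle homology element close to their start sites. Of the 14 called genes, 11 had a RefSeq promoter. CCAAT (both strands) stood within 250 bases before the start site of 7 of the 11 and of 28 of 39 tested genes of the list that were not called, against 33.8% of all 32851 promoters. TTTGAA, 1 form of the cell cycle element (both strands), stood there in 3 of the 11 and 11 of the 39, against 16% of all promoters. The 3 called genes with both were Cdc20 (chr4:118437344-118437593, minus strand), Cdk1 (chr10:69352913-69353162, minus strand) and Prc1 (chr7:80294226-80294475, plus strand), and capitals mark both kinds of run.
Cdc20: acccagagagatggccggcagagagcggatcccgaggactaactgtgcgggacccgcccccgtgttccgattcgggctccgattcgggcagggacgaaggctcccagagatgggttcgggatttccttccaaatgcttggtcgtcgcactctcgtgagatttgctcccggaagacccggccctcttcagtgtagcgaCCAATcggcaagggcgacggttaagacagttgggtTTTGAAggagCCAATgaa
Cdk1: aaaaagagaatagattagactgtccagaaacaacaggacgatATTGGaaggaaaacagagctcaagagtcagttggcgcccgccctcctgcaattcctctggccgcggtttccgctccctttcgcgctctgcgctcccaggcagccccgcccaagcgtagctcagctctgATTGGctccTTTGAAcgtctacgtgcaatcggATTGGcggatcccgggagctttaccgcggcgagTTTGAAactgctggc
Prc1: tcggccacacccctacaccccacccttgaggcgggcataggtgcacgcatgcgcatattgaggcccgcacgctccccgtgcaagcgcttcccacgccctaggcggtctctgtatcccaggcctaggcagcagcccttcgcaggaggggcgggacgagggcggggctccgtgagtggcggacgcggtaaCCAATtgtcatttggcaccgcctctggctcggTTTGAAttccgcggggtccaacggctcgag
Cdc20, which activates the ligase that ends metaphase, was higher by 1.02 (SE 0.33), and Prc1, a protein of the central spindle, by 1.095 (SE 0.31). These letters were also chosen after the values were seen.

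Lists of re-epithelialization genes held few called genes. Growth factors and receptors of re-epithelialization gave 4 higher and 0 lower of 29 (background 1.96% and 2.45%), with a median of 0.56. This median was 0.24 without replicate 1 of labelled day 7 and 0.35 without replicate 1 of labelled day 14. Lama3, a laminin chain of the epidermal basement membrane, stood at −1.27 and −1.09 on labelled day 7 and at 0.30 and 0.16 on labelled day 14, a difference of 1.41 (SE 0.57). The ligands Epgn and Nrg1 were higher by 1.49 (SE 0.65) and 1.46 (SE 0.46). Lama3 lost its call whichever of the 4 arrays was left out. Epgn was not called without replicate 1 of labelled day 7 (1.00), without replicate 1 of labelled day 14 (0.94) or with the replicate block, nor was Nrg1 without replicate 1 of labelled day 7 or replicate 2 of labelled day 14. The wound keratins Krt6a, Krt6b, Krt16 and Krt17 all had a difference above 0 but none was called by limma. Krt16 stood at 7.22 and 7.65 against 7.64 and 8.02. No gene of 18 in the Sprr and Lce3 families of the cornified envelope was called, and 12 of these 18 had replicates of labelled day 7 more than 2-fold apart. At an unadjusted p below 0.05 the count was 0 in both lists, and with only the arrays compared in the fit 1 gene of the Sprr and Lce3 families was called higher. The median of the Sprr and Lce3 genes was 0.39, but −0.22 without replicate 1 of labelled day 14 and −0.16 without replicate 1 of labelled day 7. The growth factor count was 1 without replicate 1 of either labelled day, and 1 gene was called lower without replicate 2 of either.

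Matrix, protease and myofibroblast genes were higher where they were called, with 1 exception. The background for these lists was 1.96% of all probes called higher and 2.45% lower. Timp1, which inhibits metalloproteinases, stood at 3.13 and 3.20 on labelled day 7 and at 5.27 and 5.55 on labelled day 14, a difference of 2.25 (SE 0.35). The days lay apart by more than the replicates did. Proteases and inhibitors gave 4 higher and 1 lower of 24, the former with Mmp1b (at least 3.99-fold) and Mmp8 (1.75, SE 0.62), and the latter Mmp1a (−2.92, SE 1.00), which was well above background on 1 of 2 arrays labelled day 14. The protease count was 6 higher and 0 lower without replicate 2 of either day, and 3 higher and 2 lower with a median of 0.03 without replicate 1 of labelled day 14. Mmp1b was not called with normexp background correction (0.58) or with a floor on dim signals. Mmp8 was not called without replicate 2 of labelled day 7 or without replicate 1 of labelled day 14 (1.15). Mmp1a was not called without replicate 2 of labelled day 7 (−1.72), without replicate 2 of labelled day 14 (−2.25) or with normexp (−0.96). Myofibroblast and TGF-β genes gave 6 higher and 0 lower of 24, led by Inhba (1.70, SE 0.72), whose arrays overlapped between the days, Scx (1.65, SE 0.58), Ltbp2 (1.63, SE 0.45) and Ccn4 (1.42, SE 0.60). Without replicate 1 of labelled day 7 the difference was 0.57 for Inhba and 0.53 for Ccn4, and neither was called, while without replicate 2 of that day it was 2.82 and 2.31. Inhba was also not called without replicate 1 of labelled day 14 (0.97), with the replicate block or with only the arrays compared in the fit, and Ccn4 was also lost without either array labelled day 14 and with only the arrays compared. Scx was not called without replicate 1 of labelled day 7 or replicate 2 of labelled day 14 (0.97), nor Ltbp2 without replicate 1 of labelled day 14 (1.06).

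Of 40 genes of collagens and matrix, 4 were higher and 0 lower (background 1.96% and 2.45%). Col8a1, a short-chain collagen, stood at −2.67 and −0.49 on labelled day 7 and at −0.04 and 0.09 on labelled day 14. Thbs1, which activates latent TGF-β, was higher by 1.38 (SE 0.46), and Tnc, a glycoprotein of provisional matrix, by 1.28 (SE 0.43). Without replicate 1 of labelled day 7 the difference of Col8a1 was 0.51 and that of Tnc 0.75, and neither was called. Without replicate 1 of labelled day 14 that of Thbs1 was 0.70 and that of Tnc 1.08, and neither was called. Col8a1 was also not called without either array labelled day 14 or with only the arrays compared in the fit. Col1a2, a chain of type I collagen, did not pass (8.75 and 8.61 against 7.90 and 8.76). Of 33 vessel genes only the lymphatic and epithelial gene Pdpn was called (1.06, SE 0.30), which is near the background and not a result about the list. The vessel count was 3 without replicate 1 of labelled day 14, 2 without replicate 2 of that day and 1, another gene, without replicate 2 of labelled day 7. The matrix count was 0 higher and 1 lower without replicate 1 of labelled day 14 and 1 higher without replicate 1 of labelled day 7, where the median of 0.24 became −0.03, and 2 with only the arrays compared in the fit. The myofibroblast count was 2 without replicate 1 of labelled day 7, 3 without replicate 2 of labelled day 14, and 3 with only the arrays compared in the fit. Pdpn was not called without replicate 2 of labelled day 7 or with normexp background correction.

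Hair follicle keratins held the largest decreases of all named genes. Of 16 hair keratin genes tested, 6 were lower and 0 higher (background 2.45% and 1.96%), with a median of −1.08. Differences of 4 genes were above 0, with Krt81, Krt84 and Krt86 at 0.07 to 0.13 and Krt90, which was not well above background on labelled day 7, at −8.71 and −6.47 against −3.77 and −3.30 without passing. With only the arrays compared in the fit, 1 gene was called higher and 5 lower. Krt25, a type I keratin of the inner root sheath, stood at −1.93 and 2.75 on labelled day 7 and at −7.03 and −6.58 on labelled day 14, a difference of −7.21 (SE 1.40). Krt71, its type II partner class, stood at −1.20 and 3.999 against −3.97 and −5.08, a difference of −5.92 (SE 1.596). Krt35, of the hair cortex and cuticle, stood at −1.63 and 2.04 against −5.57 and −5.45, a difference of −5.71 (SE 1.12). Replicate 2 of labelled day 7 was far above replicate 1 for each of these 3 genes. Both arrays labelled day 14 lay below both, which the rule that chose the genes asked for.

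That gap between replicates ran through the list. The summed level of the 16 genes was 3.13 and 36.7 on labelled day 7 and 2.02 and 1.66 on labelled day 14. Krt28 behaved alike (−1.83 and 1.89 against −4.47 and −4.18), while Krt81, with the highest mean signal, differed by 0.13 (SE 0.38) and did not pass. Without replicate 2 of labelled day 7 the list kept 4 of its 6 calls, and its median was −0.53. Krt71 and Krt28 were among those called, at −3.32 and −2.50.

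Follicle proteins and regulators gave 8 lower and 3 higher of 27 (background 2.45% and 1.96%). Lhx2, a transcription factor of follicle stem cells, stood at 1.105 and 1.16 on labelled day 7 and at −0.47 and −0.72 on labelled day 14, a difference of −1.73 (SE 0.46). Shh, the morphogen of follicle growth, was dim and lower by −2.49 (SE 0.79), and it was well above background on 1 of 2 arrays labelled day 14. S100a3 of the hair cuticle (−2.45, SE 0.74) and Sox21 (−1.68, SE 0.61) were lower too. On the other side, Lgr5, a marker of follicle stem cells, stood at −0.68 and −0.41 against 0.50 and 0.93, a difference of 1.26 (SE 0.29), with Tchhl1 (2.27, SE 0.76) and Dsc2 (2.12, SE 0.79). Shh was not called without replicate 2 of labelled day 7 (−1.45), without replicate 2 of labelled day 14 or with normexp background correction (−0.92). S100a3 was not called without replicate 2 of labelled day 7 (−1.16) or with only the arrays compared in the fit, nor was Sox21 without either array labelled day 7 or without replicate 2 of labelled day 14. Tchhl1 was not called without replicate 1 of labelled day 7 (1.19) or replicate 2 of labelled day 14, nor was Dsc2 without replicate 2 of labelled day 7 or replicate 1 of labelled day 14. The lower count was 2 without replicate 2 of labelled day 7, 4 without replicate 2 of labelled day 14 and 5 with normexp background correction.

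Pigment genes likewise had differences of 1 direction. All 17 had a difference below 0, with a median of −1.24, and 7 were called lower (background 2.45%). Pmel, the fibril protein of melanosomes, stood at −0.21 and 0.28 on labelled day 7 and at −1.11 and −2.92 on labelled day 14, a difference of −2.05 (SE 0.80). Mlana, another melanosome protein, stood at 0.32 and 0.38 against −0.66 and −2.59, a difference of −1.97 (SE 0.79). Oca2, a melanosomal transporter, was not well above background on labelled day 14 and was at least 4.96-fold lower there. Gpr143, which was well above background on 1 of 2 arrays labelled day 14, had a difference of −1.88 (SE 0.41). Neither Gpr143 (−0.71) nor Oca2 (−0.98) was called with normexp background correction. Pmel and Mlana were not called without either array labelled day 7 or without replicate 2 of labelled day 14 (−1.14 and −1.01). Gpnmb, which macrophages express as well, was the brightest member and was called although its arrays overlapped between the days (5.41 and 3.62 against 3.70 and 2.18). It was not called without replicate 1 of labelled day 7 (−0.68), without replicate 2 of labelled day 14 (−0.82), with arrays scaled by their median or with only the arrays compared in the fit. The summed level did not overlap, at 64.1 and 34.2 on labelled day 7 and 25.5 and 13.3 on labelled day 14. The count was 3 without replicate 2 of labelled day 14, 4 without either array labelled day 7 and 9 without replicate 1 of labelled day 14.

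The epidermal barrier list was decided by 1 array. Of its 36 genes 35 had a difference below 0, with a median of −0.99. Yet only 3 were called (Hrnr, Asprv1 and Alox12b), all lower, beside 2.45% of all probes. Their summed level was 979 and 986 on labelled day 7 and 941 on replicate 1 of labelled day 14, but 263 on replicate 2. Lor, which encodes loricrin of the cornified envelope, stood at 7.64 and 7.43 against 7.50 and 4.74 and did not pass. Krt10, the keratin of suprabasal layers, stood at 6.42 and 6.84 against 6.45 and 3.56, whereas basal Krt5 stood at 7.37 and 7.03 against 7.28 and 7.47. Without replicate 1 of labelled day 14, 23 of the 36 were called lower, and without replicate 2, 1 was called and the median was 0.09. The exception was Hrnr, a filaggrin-like protein, at 2.88 and 2.46 against 0.73 and −0.03 (difference −2.32, SE 0.64), where both arrays labelled day 14 were low. Asprv1 was called in 7 of 14 settings and Alox12b in 9, and without replicate 2 of labelled day 14 they stood at differences of −0.62 and −0.68 and were not called.

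**Figure D3:**
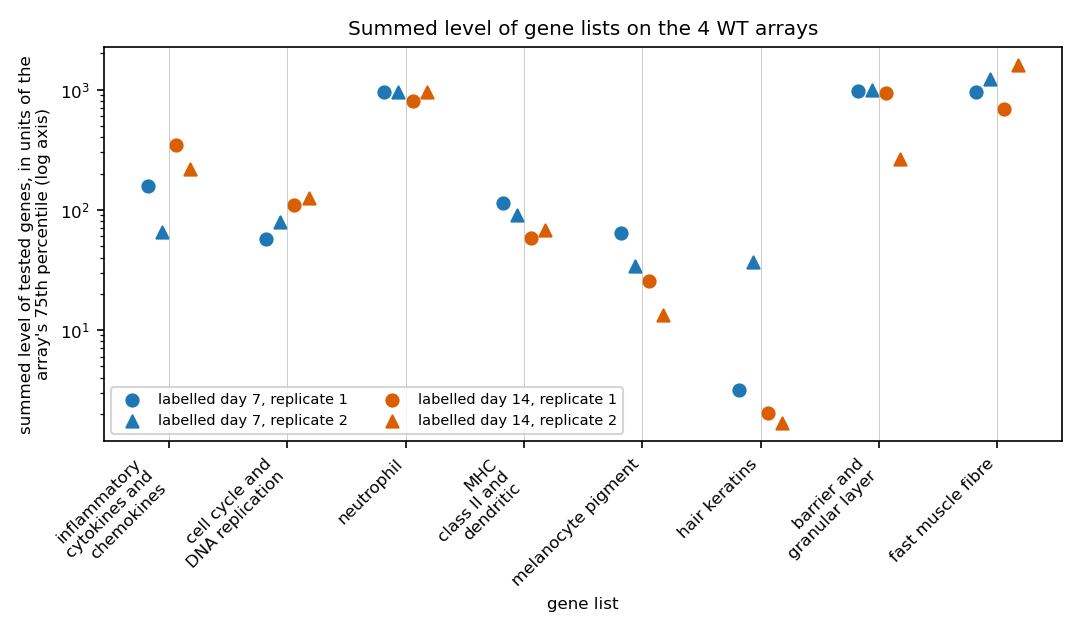
Summed level of the tested genes of 8 lists (x axis) on the 4 WT arrays (y axis, in units of the 75th percentile of the array, log axis). Circles and triangles are replicates 1 and 2, blue is labelled day 7 and orange is labelled day 14. Cytokine and cell division genes lay higher on both arrays labelled day 14, MHC class II and pigment genes lower, while hair keratins stood apart on 1 array labelled day 7 (36.7) and barrier genes on 1 array labelled day 14 (263).

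Lipid genes of the sebaceous gland and of lipid synthesis gave 7 lower and 0 higher of 31, with a median of −0.55. For this list and the adipocyte list the background was 2.45% lower and 1.96% higher. Scd1, the desaturase of saturated fatty acids, stood at 4.63 and 4.36 on labelled day 7 and at 3.57 and 2.82 on labelled day 14, a difference of −1.30 (SE 0.38). Acsm3, an acyl-CoA synthetase, stood at −1.97 and −2.07 against −4.12 and −4.28, a difference of −2.18 (SE 0.57). Elovl3, which elongates fatty acids in sebocytes, and Awat1, a wax synthase, had differences of −1.40 (SE 0.57) and −1.54 (SE 0.69). Awat1 was called in 7 of 14 settings, and not with arrays scaled by their median, with a slide or replicate block, without a filter on dim probes, without either array labelled day 7 or without replicate 2 of labelled day 14 (−0.95). Elovl3 was not called without replicate 1 of labelled day 7 (−0.95) or without either array labelled day 14, nor Scd1 without replicate 2 of labelled day 14. Of 26 adipocyte genes 24 lay below 0 and 2 were called, Pparg, the master regulator of fat cells (−1.11, SE 0.32), and Adrb3, their adrenergic receptor (−1.14, SE 0.44). Adrb3 lost its call whichever of the 4 arrays was left out, and Pparg lost its call without replicate 1 of labelled day 7 (−0.72), without replicate 2 of labelled day 14 and with arrays scaled by their median. The lipid count was 2 without replicate 2 of labelled day 14 and 3 without replicate 1 of labelled day 7 or with arrays scaled by their median, 4 with normexp background correction, and the adipocyte count was 0 without either of these arrays and 1 without replicate 2 of labelled day 7.

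The summed level of fast fibre genes of skeletal muscle differed between replicates more than between days. Of 33 fast fibre genes, 13 slow fibre genes and 47 subunits of the respiratory chain, 0 were called by limma. At an unadjusted p below 0.05 and any fold change the count was 0, 1 and 0, the 1 being Tpm3, with a difference of 0.50 (SE 0.11). With only the 4 arrays in the fit, 1 fast fibre gene was called higher and 1 slow fibre gene lower. The summed fast fibre level was 960 and 1217 on labelled day 7 and 689 and 1605 on labelled day 14, and 25 of the 33 genes had replicates of labelled day 14 more than 2-fold apart. Replicate 2 of labelled day 14, the array low in barrier genes, was the high one. Among 13 genes of muscle regeneration, the acetylcholine receptor subunits Chrnd (1.497, SE 0.46) and Chrng (1.28, SE 0.37) were called higher, beside 1.96% of all probes. Neither was called without replicate 2 of labelled day 14 (0.98 and 0.75). Chrnd was also not called without replicate 1 of labelled day 7 (1.01), nor Chrng with normexp background correction (0.44). The count of the 13 was 4 and their median 0.996 without replicate 1 of labelled day 14, while the median was −0.56 without replicate 2 of that day and −0.29 without replicate 1 of labelled day 7. Whether the amount of muscle or of intact epidermis in a sample had a part in other differences was not tested.

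The remaining lists held few calls, beside 1.96% of all probes called higher and 2.45% called lower, so that 1 or 2 calls in a list are not a result about it. Interferon-induced genes gave 2 higher of 43, Oas2 (1.61, SE 0.44) and the dim Oas1g (at least 1.40-fold). Hdc, the histamine-forming enzyme of mast cells and neutrophils, was the 1 gene called of 14 mast cell genes (1.74, SE 0.56), of which 10 had a difference below 0 (median −0.43). Without replicate 1 of labelled day 14, 7 mast cell genes were called lower and the median was −1.15, and without replicate 2 of that day 0 were lower and the median was 0.11. The lactate carrier Slc16a3 was the 1 called of 33 genes of glycolysis and hypoxia (1.03, SE 0.27). Of 19 genes of Schwann cells and nerves, Mal was higher (2.03, SE 0.62) and Gfra3 lower (−1.16, SE 0.47). Of 18 clock genes, Arntl, which encodes the activator BMAL1, stood at 0.07 and −0.16 on labelled day 7 and at −0.78 and −1.60 on labelled day 14 (difference −1.14, SE 0.24). Mal kept its call without any 1 array. Oas2, Oas1g, Slc16a3, Gfra3 and Arntl were not called without replicate 2 of labelled day 14. Neither were Oas2 (0.95), Oas1g, Gfra3 (−0.64) and Hdc (0.83) without replicate 2 of labelled day 7, nor Slc16a3 without replicate 1 of that day. Oas2, Hdc and Gfra3 were also not called with only the arrays compared in the fit, nor Oas1g with normexp background correction (0.02) or a floor on dim signals, nor Gfra3 with arrays scaled by their median. In limma 0 of 7 red blood cell genes and 0 of 9 basal and suprabasal keratins were called, with 0 at an unadjusted p below 0.05 in both lists. For the keratins 2 were lower without replicate 1 of labelled day 14. For 9 of the called genes named here, Lman1l, Il4ra, Ccn4, Lama3, Tnc, Pdpn, Adrb3, Alox12b and Sox21, 1 of 2 probes was called, and for Cdk1 2 of 3 were.

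**Figure D4:**
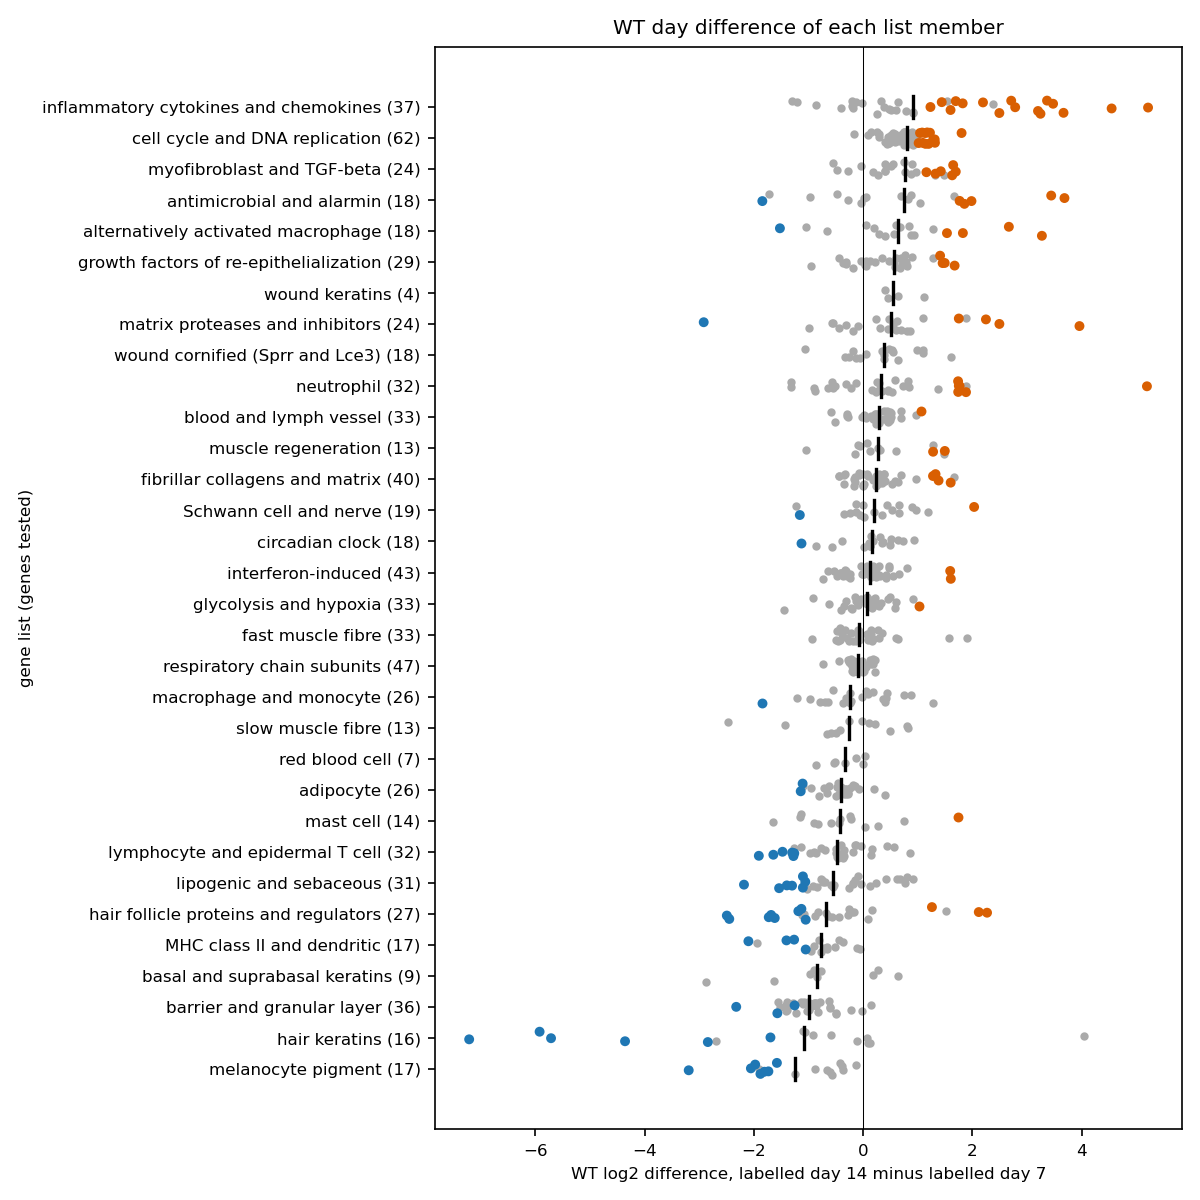
WT difference between the labelled days (x axis, log2, labelled day 14 minus labelled day 7) of each tested gene of the lists (y axis, with the number of genes tested). Orange and blue points were called higher and lower, grey points were not called, and the black bar is the median of the list. Cytokines lie at the top with a median of 0.92 and pigment genes at the bottom with −1.24.

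Named genes outside the lists were mixed in kind. Fosb, an immediate-early transcription factor, stood at 1.92 and 2.75 on labelled day 7 and at −1.53 and −2.48 on labelled day 14, a difference of −4.34 (SE 0.73). Clca1 (−3.11, SE 1.13) and the granin Scg2 (−3.56, SE 1.16) were lower, as were Rdh16f2, Gpr17 and Gpr37. Pou5f1-rs4 was at least 9.69-fold lower. On the other side stood Agxt (4.25, SE 0.79), Lman1l (3.55, SE 0.60), Spink12 (3.32, SE 1.29), Igfn1 (at least 6.01-fold) and the amino acid carrier Slc38a5 (at least 12.6-fold). Agxt and Spink12 were well above background on 1 of 2 arrays labelled day 7, and Scg2, Gpr17 and Gpr37 on 1 of 2 labelled day 14. With normexp background correction Agxt was at 1.52 and still called, while Spink12, at 0.78, was not. Gpr37 stood at −3.36 and −2.90 against −3.91 and −8.49, so that it rested on replicate 2 of labelled day 14, and it was called in 5 of 14 settings. Igfn1 was called in 6 of 14 settings, and not when any 1 of the 4 arrays was left out, with the replicate block, with a floor on dim signals or with normexp background correction, where its difference was 1.04. Clca1 and Scg2 were not called without replicate 2 of labelled day 14 (−1.51 and −2.68) or without replicate 2 of labelled day 7 (−2.91 and −2.05). Spink12 was called in 9 of the 14 settings, and not without replicate 1 of labelled day 7 or either array labelled day 14, and Gpr17 was not called without replicate 2 of labelled day 7.

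The difference between the labelled days in WT wounds was then tested against that of untreated db/db wounds, whose arrays shared the scan days. A shift common to a scan day would cancel in this contrast. A shift of a slide would not, since both WT arrays labelled day 14 lay on 1 slide and both db/db arrays of that day on another. Of 30890 probes, 2957 (9.57%) were called, 2569 (8.32%) with a WT difference above that of db/db and 388 (1.26%) with one below. The adjustment was also passed by 307 of these (293 and 14). Between the labelled days of db/db wounds 412 probes were called higher and 3341 lower, against 593 and 739 in WT. A WT difference above that of db/db thus need not be an increase in WT. Of the 1332 probes called in WT, 1097 were also tested in db/db, and 252 were called there in the same direction. That is 18.9% of all WT calls, those not tested in db/db included, and 6.71% of the 3753 db/db calls. Another 40 were called in opposite directions. Beside these counts, 12.7% of all probes tested in db/db were called, in either direction.

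Neutrophil and cytokine genes were the lists with the most genes called in this contrast, beside 8.32% of all probes called above and 1.26% below. In WT the neutrophil median was 0.32 and in db/db −0.82, and 13 of 32 genes were called in the contrast with WT above db/db and 0 below. For cytokines the medians were 0.92 and −0.35, with 11 of 37 above and 0 below. Lcn2 stood at 5.78 and 5.63 on the db/db arrays labelled day 7 and at 3.61 and 4.55 on those labelled day 14, where WT had 2.23 and 1.41 against 3.83 and 3.36 (contrast 3.39, SE 0.62, limma adjusted p = 0.041). Slfn4, an interferon-inducible gene of myeloid cells, stood at −2.88 and −4.32 against −2.10 and −1.16 in WT and at −0.33 and −0.75 against −2.65 and −2.29 in db/db (contrast 3.90, SE 0.61, limma adjusted p = 0.025). For both genes the WT arrays labelled day 14 were the higher pair and the db/db arrays labelled day 14 the lower pair. Antimicrobial genes had 5 of 18 above and 0 below, and clock genes 5 of 18 above and 2 below.

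The other lists ranged from 0 calls to 10. For cell division genes the medians were 0.80 in WT and 0.58 in db/db, and 0 of the 62 genes tested in WT were called in the contrast by limma, with 0 at an unadjusted p below 0.05. Among the named genes with an adjusted p below 0.05 in this contrast (limma), Fosb had the largest contrast with WT below db/db. In db/db it stood at 0.52 and 2.61 on labelled day 7 and at 3.51 and 2.23 on labelled day 14 (contrast −5.65, SE 1.04, limma adjusted p = 0.041). Plod2, which hydroxylates collagen lysines, stood at −0.79 and −0.58 against −1.05 and −0.99 in WT and at −1.32 and −2.46 against 0.28 and 0.24 in db/db (contrast −2.49, SE 0.48, limma adjusted p = 0.046). For interferon-induced genes 8 of 43 were called with WT below db/db and 2 above, and for vessel genes 4 of 33 below and 2 above. For hair keratins 4 of 16 were below and 0 above. Over all probes 1.26% were below and 8.32% above, so that the 2 interferon-induced and the 2 vessel genes above are not a result about these lists. A contrast that misses the threshold does not show that the 2 genotypes had equal differences.

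**Figure D5:**
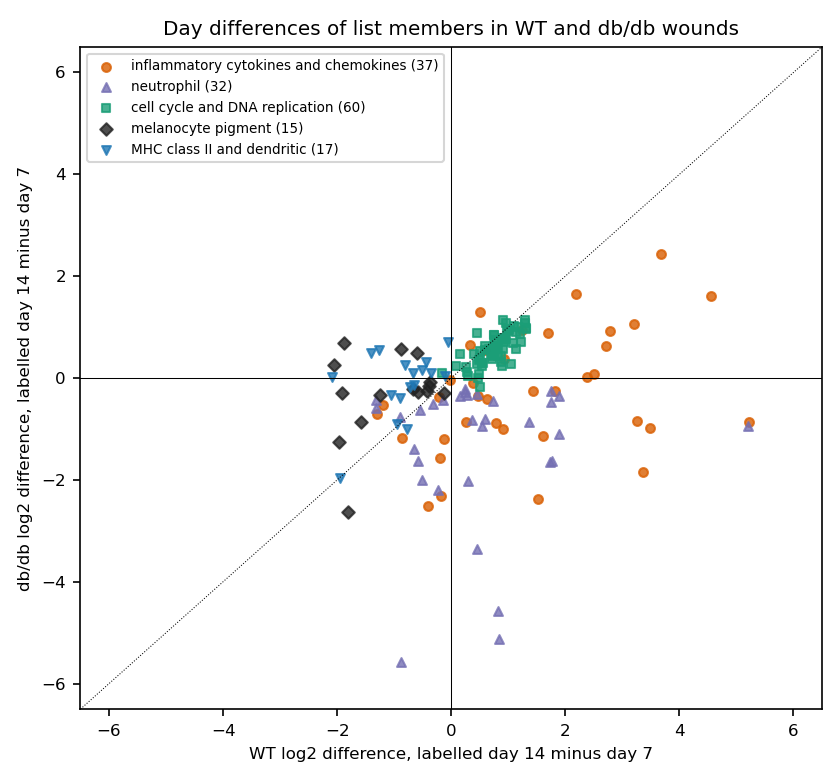
Difference between the labelled days (log2, labelled day 14 minus labelled day 7) in WT wounds (x axis) and db/db wounds (y axis) for genes of 5 lists, with the number of genes tested in both in brackets. On the dotted line the differences would be equal. Nearly all cell division genes lie above 0 on both axes, whereas neutrophil genes have a median of 0.32 in WT and −0.82 in db/db.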

How the data were processed

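Whole-genome mouse arrays of 1 colour (Cy3) were scanned and read with Agilent Feature Extraction 11.0.1.1 per the file headers, and the deposited scanner files hold 1 processed signal a spot, a background-subtracted intensity. The authors also deposited a value table of 34643 probes, which holds the ratio of this signal to the 75th percentile of its array (agreement to 0.1% on every array for 99.36% or more of its probes). It was used as an alternative. From the scanner files, non-control spots were kept, and spots flagged as non-uniform or as population outliers were left out (132 to 300 on the 4 WT arrays). The spots of 1 probe were averaged, and log2 of the signal minus log2 of the 75th percentile of the array was taken. A fold given as "at least" used dim arrays raised, where they lay lower, to the lowest level well above background on that array. No fold was given where this bound fell below 1. Of 39429 probes, 27421 (69.5%) carried 1 gene symbol, taken from the scanner files and a RefSeq table, and the others are unnamed. Probes entered the test where a group compared had both of its arrays well above background, and were tested in limma 3.58.1 (R 4.3.3, statmod 1.5.0), with a term for each of the 8 groups of 2 arrays, which leaves 8 residual degrees of freedom. A probe was called at an unadjusted p below 0.05 and a fold change above 2.

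For each gene the brightest tested probe, by its mean level on all 16 arrays, was used. The genes named were the 15 called genes with the largest difference in each direction whose groups did not overlap, predicted genes left out, up to 4 called genes in each direction and the brightest member of each list, and up to 8 genes of each sign in the contrast with db/db wounds. The members and the gene lists were chosen with earlier results of these data known. The alternatives were normexp background correction with an offset of 50, quantile normalization, scaling by the median, other filters and a floor on dim signals, the deposited value table, only the arrays compared, slide and replicate number as blocks, and leaving out each array. Fold changes printed in the study served only to check the day labels. Some genes that the rule selects are not reported here.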

Additional observations from a re-analysis of the deposited data

Results flagged for a closer look

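For 16 named genes the difference between the labelled days differed between WT and db/db wounds, by the contrast of the 2 differences with an adjusted p below 0.05 in limma. These were the 8 of each sign with the largest fitted contrast, also where a group was not well above background. The contrast (WT difference minus db/db difference, log2) was 4.88 for Itgb2l, an integrin subunit of neutrophils, which was well above background only on the db/db arrays labelled day 7. It was 3.90 for Slfn4 and 3.39 for Lcn2, which were called higher in WT and lower in db/db. It was 3.81 for Ppm1n, 3.65 for the fatty acid carrier Slc27a2 and 3.33 for Cyp2d10, all dim. With normexp background correction the contrast was 0.88 for Ppm1n and 0.97 for Cyp2d10, and neither was called. For the plasma proteins Ambp and Ahsg, known mainly from the liver, it was 3.71 and 3.62.

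On the other side the contrast was −5.65 for Fosb and −3.60 for Stmn4, a stathmin of neurons. It was −2.59 for Zfp365, −2.49 for Plod2 and −2.28 for Fras1, an extracellular protein of the dermal-epidermal junction. For Hsd17b3 it was −2.89, and this gene was well above background only on the WT arrays labelled day 7. For Lipc (−3.27) and Gzmn (−2.70) no WT array was well above background, so that the contrast rests on the db/db arrays. Where a group was not well above background, the contrast is a fitted value and no bound. With normexp background correction it was −0.50 for Hsd17b3 and −0.40 for Lipc, and neither was called. Strain and genotype differed together between WT and db/db mice, and their parts cannot be told apart.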

How the results depend on the processing

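The number of WT probes called, 1332, was 632 with normexp background correction, 2740 without a filter on dim probes and 1485 to 2287 with 1 array left out. After adjustment 5 probes remained, against 48 with quantile normalization, 8 with scaling by the median, and 0 with normexp, with all arrays compared well above background, with a floor on dim signals or with only the arrays compared, and 20 to 578 without 1 array. The share of calls that were higher, 44.5%, was 59.9% with quantile normalization, 62.1% with scaling by the median, 26.6% without a filter, 34.3% with all arrays above background, 31.5% with a floor, and 33.1% to 57.7% without 1 array. The contrast with db/db wounds gave 1218 (normexp) and 1875 (all arrays above background) in place of 2957, and 2295 to 4323 without 1 array. The median of all probes was −0.12 with normexp and 0.11 with scaling by the median. The median of the basal and suprabasal keratins, −0.84, was 0.082 without replicate 2 of labelled day 14 and −1.40 without replicate 1. The difference of Aurkb was −0.14 with normexp and −0.44 with a floor. The cause of these changes was not tested.

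With the replicate number as a block (replicate block), 1330 probes were called, 6 after adjustment. Deviations of arrays with the same number correlated at −0.059 between the 2 WT groups, so that the numbers were not shown to pair the arrays. With slide as a random block 1424 were called, while a fixed slide term gave 3081 in the contrast. The WT difference itself has no value within a slide, since no slide held both days.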

Other observations

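Immediate-early genes, looked at after Fosb was seen among the lowest genes and hence given without a test of the group, are given as values for 11 genes, beside 2.45% of all probes called lower. Beside Fosb itself (−4.34), Fos (−1.76), Egr1 (−1.39) and Atf3 (−1.87) were called lower in WT wounds. The differences of Egr2 (−1.23), Nr4a1 (−0.90), Zfp36 (−0.97), Ier2 (−0.61), Dusp1 (−0.60) and Jun (−0.29) were below 0 and that of Junb was 0.11, and none of these was called. As background, these genes are induced quickly and briefly by growth factors, wounding and stress.

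Clock genes were likewise looked at beyond the named Arntl. The WT difference was −0.86 for Npas2, 0.93 for Dbp, 0.72 for Per2 and 0.64 for Per3, and the db/db difference was 0.55, −0.65, −0.74 and −1.86. For Arntl the 2 differences were −1.14 and 0.48. Arntl was the only 1 of these 5 called in WT wounds. The 5 were picked from the 18 clock genes tested. Of these 18, 14 had a WT difference above 0 and 4 below, with a median of 0.16, and the db/db median was −0.15.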
